A study of Hevea brasiliensis with 21 samples.

Results

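Of the 86941 contigs of the rubber tree reference transcriptome, 2 were present in every latex library of clone PB260 and nearly absent from every latex library of clone PB217. They are CL573Contig3 and CL29867Contig1. They were chosen by their measured levels: at least 2 CPM in each of the 9 PB260 libraries and under 0.1 CPM in each of the 12 PB217 libraries, where CPM is the number of read pairs on a contig scaled to 1000000 pairs counted in the library. The difference between the clones is therefore how these contigs were found, and its values are given below as a description without a test. The reference transcriptome itself was assembled from PB260.

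In Hevea brasiliensis, rubber is made in laticifers, a network of bark cells, and their cell content is harvested as latex by cutting (tapping) the bark. Ethephon, which releases the plant hormone ethylene, is applied to the tapping panel to stimulate latex flow. Tapping panel dryness (TPD) is a syndrome in which part or all of the tapping cut stops yielding latex. Rubber clones are grafted, so trees of 1 clone share a genotype, and sequences can differ between clones.

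All libraries came from latex of trees labelled wild type. In PB260, 3 control trees received no ethephon, 3 trees with slight TPD received ethephon 12 times a year, and 3 trees with severe TPD received the same ethephon treatment, all at month 36 of tapping. The sample labels call the slight TPD trees and the controls healthy, whereas the study's methods describe both as slightly affected. In PB217, the titles give 3 control and 3 ethephon libraries at month 1, and 3 control and 3 ethephon libraries with TPD at month 36. The titles set 0 or 12 as the yearly ethephon number, although the labels' treatment field names no treatment for any library. Each PB260 library is 1 tree, whereas the PB217 labels do not say that each library is 1 separate tree. All PB260 titles carry the codes S and D2 and all PB217 titles T and D1, so clone and these codes, of which T is not explained in the sources used here, cannot be told apart. Control trees of month 36 were harvested on another day than the ethephon trees of both clones, so the day of harvest and the ethephon treatment also cannot be told apart.

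Depth differed little between the clones. The PB260 libraries held 16102321 to 22785723 counted pairs and the PB217 libraries 16694058 to 23126417, so that 0.1 CPM stood for 1.67 to 2.31 pairs in a PB217 library and 2 CPM for 32.2 to 45.6 pairs in a PB260 library. A contig could thus hold 1 or at most 2 pairs in a PB217 library and still meet the rule.

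CL573Contig3 is 410 bases long and is 1 of the 5 contigs whose names share the cluster number CL573. In PB260 controls it had 6.06, 4.67 and 6.84 CPM (138, 87 and 135 pairs). In slight TPD trees with ethephon it had 8.15, 5.65 and 5.72 CPM (152, 91 and 126 pairs), and in severe TPD trees 6.09, 2.22 and 5.08 CPM (135, 44 and 96 pairs). The 3 groups overlapped, and the lowest value came from severe TPD tree 2, whose exact 95% Poisson interval of 1.61 to 2.98 CPM reaches below the limit of 2.

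In the 12 PB217 libraries, CL573Contig3 had 4 pairs in all. A month 1 control, a month 1 ethephon, a month 36 control and a TPD library had 1 each, and the other 8 had 0. Its highest PB217 level was 0.0525 CPM. Over all PB217 pairs the level was 0.0172 CPM (exact 95% Poisson interval 0.00467 to 0.0439), or 0.305% of the pooled PB260 level of 5.61 CPM (interval of the ratio 0.0831 to 0.785%). At the PB260 level, 1309 pairs would have been counted in place of these 4. The files' separate count of single reads gave 2033 reads in PB260 and 8 in PB217. These intervals cover counting error only.

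CL29867Contig1 is 287 bases long and is the only contig of its cluster. It had 2.41, 3.06 and 2.28 CPM in PB260 controls (55, 57 and 45 pairs). With ethephon it had 4.50, 4.66 and 3.68 CPM in slight TPD trees (84, 75 and 81 pairs) and 2.98, 2.73 and 3.76 CPM in severe TPD trees (66, 54 and 71 pairs). Each slight TPD tree lay above each control, whereas the severe TPD trees overlapped both other groups. In bulk latex RNA, fewer cells that express a contig and less RNA of it per cell cannot be told apart.

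In PB217, CL29867Contig1 was found in 1 library, TPD replicate 2, with 2 pairs (0.0930 CPM), and had 0 pairs in the other 11. The pooled PB217 level was 0.00858 CPM (0.00104 to 0.0310), 0.261% of the pooled PB260 level of 3.29 CPM (interval of the ratio 0.0315 to 0.946%). At the PB260 level, 767 pairs would have been counted. Single reads numbered 1277 in PB260 and 4 in PB217. A library with 0 pairs of either contig allows up to 0.160 to 0.221 CPM (upper limit of the exact 95% interval), so absence was shown per library only to that level and more closely over the pooled libraries.

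**Figure D1:**
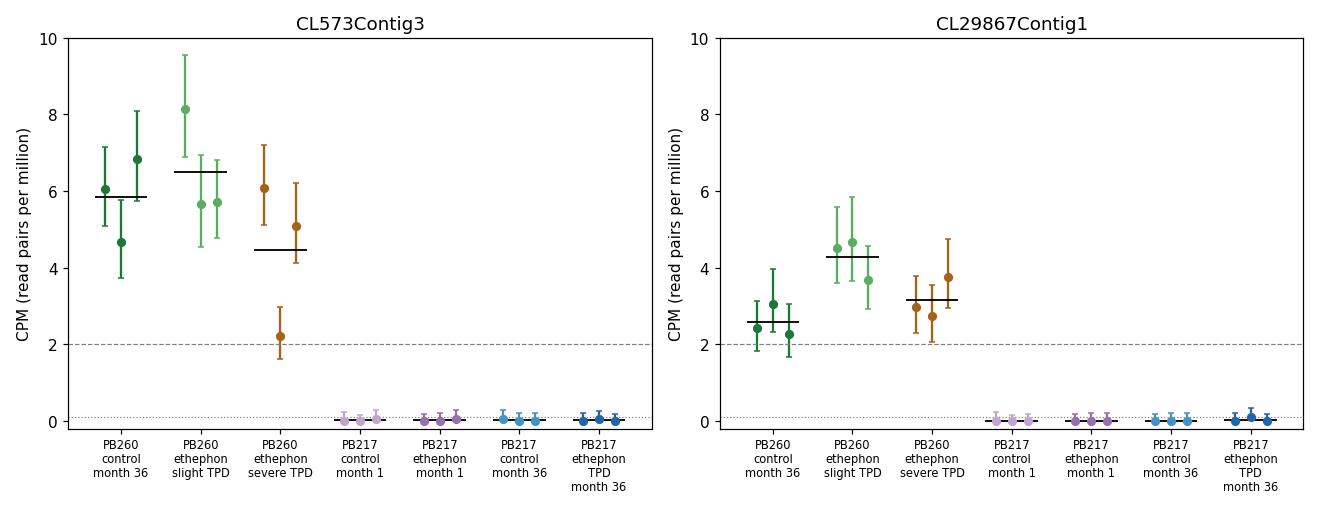
CPM (read pairs scaled to 1000000 counted pairs) of CL573Contig3 (left) and CL29867Contig1 (right) in each of the 21 libraries, by group. Points are single libraries with exact 95% Poisson intervals, horizontal bars are group means, and the dashed and dotted lines are the limits of 2 and 0.1 CPM. All PB260 points lie between 2.22 and 8.15 CPM and all PB217 points at or below 0.0930 CPM.

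Both contigs were short and weakly expressed among the 19651 contigs that reached 2 CPM in every PB260 library. The limits are in CPM, which is not divided by length, so both traits depend in part on the rule. The mean over the 9 PB260 libraries was 5.61 ± 1.62 CPM for CL573Contig3 and 3.34 ± 0.862 CPM for CL29867Contig1 (SD, n = 9), against a median of 16.2 CPM for all 19651. Of these contigs, 14.0% were weaker than CL573Contig3 and 1.64% weaker than CL29867Contig1. In length, 1.96% were shorter than CL573Contig3 and 0.448% shorter than CL29867Contig1, the median length being 1223 bases. Per kilobase, the means were 13.7 and 11.6 CPM, beside a median of 13.3 CPM per kilobase, and 51.1% and 44.8% of the contigs were lower on this scale. The coefficients of variation between PB260 libraries were 28.9% and 25.8%, against a median of 25.9%.

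The first question within PB260 was whether the contigs responded to ethephon. Neither was called. The fits scale libraries by TMM, which moved the median log2 fold change of all contigs by -0.19 in this comparison relative to plain library sums (the scale of the CPM above), so a change by CPM and a fitted change can differ in sign. Against controls, CL573Contig3 had a log2 fold change of -0.043 ± 0.21 (SE) in slight TPD trees with ethephon (adjusted p = 0.906, edgeR quasi-likelihood test with Benjamini-Hochberg adjustment over all 30522 contigs tested). CL29867Contig1 had a log2 fold change of 0.53 ± 0.25 (adjusted p = 0.157, unadjusted p = 0.0675). With plain library sums these values were 0.15 ± 0.24 and 0.73 ± 0.26 (adjusted p of 0.676 and 0.0572, edgeR), so the sign for CL573Contig3 turned with the scaling. Thus 0 of 2 contigs were called, where 13.2% of all tested contigs were called higher and 14.4% lower (4031 and 4405 with TMM, but 6082 and 3198 with plain library sums). With DESeq2 and with edgeR's exact test 0 of 2 were also called, and 0 of 2 had an unadjusted p under 0.05 in any of the 3 tests. With plain library sums 1 did, CL29867Contig1. With TMM, leaving out control tree 2 also gave 1 of 2 with an unadjusted p under 0.05 (edgeR quasi-likelihood test). The sign for CL573Contig3 also turned when control tree 3 or slight TPD tree 2 or 3 was left out (log2 fold changes of 0.049, 0.031 and 0.044).

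The second question was whether they differed with the severity of dryness. Severe against slight TPD trees, all with ethephon, gave log2 fold changes of -0.36 ± 0.36 for CL573Contig3 (adjusted p = 0.763) and -0.26 ± 0.28 for CL29867Contig1 (adjusted p = 0.782), by edgeR's quasi-likelihood test. In this comparison 0 of 2 contigs were called, beside 0.133% of all tested contigs called higher and 0% lower. With edgeR's exact test, 493 of all tested contigs were called higher and 74 lower. The study, which used an exact test, reported the opposite balance, with mostly under-expressed genes in severe TPD. The cause of this difference was not tested. With plain library sums, which differ from TMM by a median of 0.18 here, the values were -0.54 and -0.44 (adjusted p of 0.534 and 0.509, edgeR). The value of CL573Contig3 rested on severe TPD tree 2, and without it the log2 fold change was -0.049. Severe TPD trees against controls gave -0.37 ± 0.36 for CL573Contig3 (adjusted p = 0.540, edgeR) and 0.31 ± 0.32 for CL29867Contig1 (adjusted p = 0.563, edgeR). Again 0 of 2 were called, with 6.6% of all tested contigs called higher and 4.91% lower, and without severe TPD tree 2 the value of CL573Contig3 was -0.090. The comparisons share libraries and are not independent. In both, the count of contigs with an unadjusted p under 0.05 was 0 of 2 with edgeR's quasi-likelihood test, edgeR's exact test and DESeq2. A missed threshold does not show that the levels were equal.

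In the cluster of CL573Contig3, the contigs CL573Contig1, CL573Contig4 and CL573Contig5 had pairs in all libraries of both clones, but CL573Contig2 did not. The cluster number is read here from the contig names, which the sources used do not define. The 2 abundant contigs of the cluster were CL573Contig5 (1655 bases, mean 385 CPM in PB260 and 241 CPM in PB217) and CL573Contig4 (1764 bases, 103 and 80.1 CPM). CL573Contig1 (471 bases) had means of 1.83 and 2.28 CPM, and CL573Contig2 (392 bases) of 0.197 and 0.0380 CPM. The latter had 32 pairs in PB260 and 10 in PB217. Those 10 lay in 3 PB217 libraries, with 8 of them in the same library. CL573Contig3 made up 0.445 to 1.69% of the summed CPM of the cluster in PB260 libraries and 0 to 0.0194% in PB217 libraries, while the cluster as a whole reached 431 to 570 CPM in PB260 and 246 to 462 CPM in PB217.

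The other contigs of CL573 were not used by the rule and were tested between the clones. Among controls of month 36, CL573Contig1 differed by a log2 fold change of 0.85 ± 0.33 in PB217 against PB260 (adjusted p = 0.0846), CL573Contig4 by 0.058 ± 0.17 (adjusted p = 0.822) and CL573Contig5 by -0.38 ± 0.18 (adjusted p = 0.146), by edgeR's quasi-likelihood test. TMM moved the median of all contigs by 0.41 in this comparison. With plain library sums the values were 0.45, -0.35 and -0.78 (adjusted p of 0.290, 0.120 and 0.00573, edgeR), so CL573Contig4 changed sign and CL573Contig5 was called lower in PB217. With TMM, 0 of the 3 tested were called, where 15.3% of all contigs were called higher and 13.9% lower in PB217 (4500 and 4095, but 2510 and 10390 with plain library sums). At an unadjusted p under 0.05 there was 1, CL573Contig1. Between TPD libraries of PB217 and severe TPD trees of PB260 the values were 0.71 ± 0.37, -0.099 ± 0.22 and -0.24 ± 0.26 (adjusted p of 0.280, 0.841 and 0.641, edgeR). There, 0 of 3 were called, and 0 had an unadjusted p under 0.05, beside 5.4% of contigs called higher and 4.13% lower. Both of these counts were 0 with DESeq2 and with edgeR's exact test as well, which scale libraries in the same way or nearly so. In the controls, 2 calls appeared when 1 library was left out: CL573Contig5 was lower in PB217 without PB260 control 3 (log2 fold change -0.55, adjusted p = 0.0304, edgeR) and CL573Contig1 was higher without PB260 control 2 (1.18, adjusted p = 0.0328, edgeR). CL573Contig2 was too weak to be tested.

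**Figure D2:**
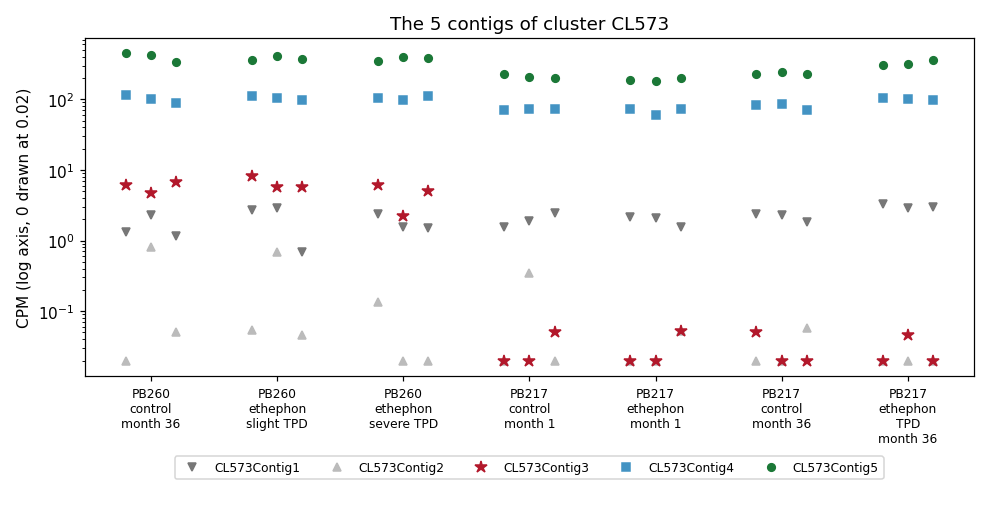
CPM on a log axis of the 5 contigs of cluster CL573 in the 21 libraries, by group, with 0 drawn at 0.02. CL573Contig5 and CL573Contig4 lie in the same decades in both clones, whereas CL573Contig3 (stars) lies between 2.22 and 8.15 CPM in PB260 and at or below 0.0525 CPM in PB217.

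Since reads that hit several contigs equally well were removed by the authors, each count holds only pairs placed on 1 contig. How many PB217 pairs of a similar but not identical sequence were placed on another contig of CL573, or on none, was not tested, because no contig sequence was held. Absence of the transcript and a difference in its sequence cannot be told apart from these counts.

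The rule was narrow on both sides. Of the 19651 contigs at 2 CPM or more in all PB260 libraries, 18214 (92.7%) reached 5 CPM in at least 1 PB217 library, and 27 had their highest PB217 level between 0.1 and 0.5 CPM. The contig just outside the PB217 limit was CL7801Contig2, with a highest PB217 level of 0.105 CPM, followed by CL1Contig324 at 0.149 CPM and CL16895Contig1 at 0.163 CPM. Inside it, CL29867Contig1 stood at 0.0930 CPM. Just outside the PB260 limit were CL18577Contig1, with a lowest PB260 level of 1.91 CPM, CL32471Contig1 at 1.44 CPM and CL15551Contig1 at 1.22 CPM, whereas the 2 selected contigs had lowest levels of 2.22 and 2.28 CPM. In the opposite direction, 4 of the 17994 contigs at 2 CPM or more in all PB217 libraries were under 0.1 CPM in all PB260 libraries, although the reference came from PB260.

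Among the contigs just outside, CL18345Contig1 had 543 pairs in PB260 and 0 in PB217. It stayed out because severe TPD tree 3 had 1.16 CPM. CL18577Contig1 had 1388 pairs in PB260 and 1 in PB217, with 20.1, 14.6 and 13.7 CPM in controls and 2.73, 3.73 and 1.91 CPM in slight TPD trees with ethephon, the last of which kept it out.

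**Figure D3:**
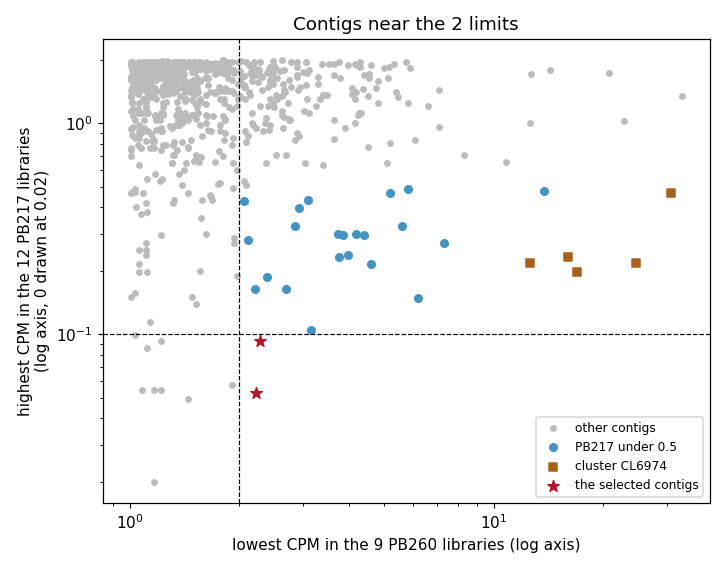
Each contig with at least 1 CPM in every PB260 library and under 2 CPM in every PB217 library, by its lowest PB260 level (horizontal, log axis) and its highest PB217 level (vertical, log axis, 0 drawn at 0.02). Dashed lines are the limits of 2 and 0.1 CPM, and the 2 selected contigs (stars) sit in the lower right quadrant at 2.22 and 2.28 CPM, with the 5 contigs of CL6974 (squares) far to the right but above the PB217 limit.

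A PB217 limit of 0.5 CPM in place of 0.1 gave 29 contigs, the 2 above among them. As a description, their pooled PB217 level was 0.172 to 6.52% of that in PB260, with a median of 0.978%, and each of the 29 had at least 2 pairs in PB217. They were short, with a median of 526 bases, and 23 of 29 (79.3%) were under 700 bases against 15.7% of the 19651. Their median PB260 level of 7.87 CPM was below the 16.2 CPM of all, but per kilobase the medians were 13.7 and 13.3 CPM. As above, length and level depend in part on limits set in CPM. Of the 16 that had other contigs in a cluster of 2 to 20, 7 (43.8%) had one with a PB217 mean of at least 2 CPM, where the share among all was 7609 of 9918 (76.7%). For 5 of the 16, those of cluster CL6974, all other contigs of the cluster were themselves chosen for low PB217 levels, and among the other 11 the count was 7 (63.6%). No test was made of these differences.

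The strongest of the 29 were the 5 contigs of cluster CL6974, 387 to 623 bases long, whose PB260 means were 54.0, 40.4, 35.0, 32.7 and 21.1 CPM. Together they had 32501 pairs in PB260 and 84 in PB217, which is 0.198% of the PB260 level. Their summed level was 135, 126 and 113 CPM in PB260 controls, 277, 210 and 219 CPM in slight TPD trees with ethephon, and 182, 138 and 248 CPM in severe TPD trees. Each ethephon tree lay above each control, and the slight and severe TPD trees overlapped. In PB217 the sum was 0.396 to 0.977 CPM in the 3 TPD libraries and 0.0998 to 0.473 CPM in the other 9 libraries. The TPD libraries held 46 of the 84 pairs, and each of the 5 contigs had its highest PB217 level in one of them. Over all 29 contigs, the 3 TPD libraries of PB217 had 3.47 to 5.06 CPM and the other 9 libraries 1.32 to 2.75 CPM. Among all contigs of the reference, these 3 libraries also had more contigs at 2 CPM or more. The numbers were 25702, 26265 and 23391, against 20241 to 23178 in the other 9. Whether the higher PB217 levels in TPD libraries were particular to the 29 contigs was not tested.

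All 29 contigs passed the count filter in the 3 PB260 comparisons. With ethephon in slight TPD trees, 8 of 29 rose and 3 fell, beside 15.0% higher and 15.6% lower among the 19651. The 5 contigs of CL6974 make up most of the 8 and are not independent of each other: their log2 fold changes were 0.70 for CL6974Contig1, 0.69 for CL6974Contig4, 0.69 for CL6974Contig2, 0.79 for CL6974Contig5 and 0.74 for CL6974Contig3 (adjusted p of 0.0187, 0.0153, 0.0141, 0.0170 and 0.0205, edgeR). Without slight TPD tree 3 the count of contigs that rose was 5, and with all 9 PB260 libraries in one fit it was 3.

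CL13741Contig1 had the largest rise of the 29, from 10.2, 6.65 and 3.75 CPM in controls to 39.6, 38.4 and 44.0 CPM in slight TPD trees (log2 fold change 2.37, adjusted p = 0.000980, edgeR). CL10311Contig1 had the largest fall, from 29.4, 17.1 and 20.2 CPM to 4.13, 5.34 and 3.09 CPM (log2 fold change -2.60, adjusted p = 0.000352, edgeR). The groups did not overlap for either contig. The best match held for CL10311Contig1 was hCG1813013 of Homo sapiens, and the organism it came from was not tested.

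Between severe and slight TPD trees, 0 of 29 were called (2 had an unadjusted p under 0.05 with edgeR's quasi-likelihood test, and DESeq2 and the exact test also called 0), with 0.0865% of the 19651 called higher. Severe TPD trees against controls gave 3 contigs higher and 0 lower, beside 7.27% and 4.96%. They were CL13741Contig1, CL6974Contig5 and CL6974Contig4, with log2 fold changes of 1.75, 0.92 and 0.82 (adjusted p of 0.0260, 0.0387 and 0.0418, edgeR). The count was 1 without control tree 1 and 0 without control tree 2, control tree 3 or severe TPD tree 3.

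**Figure D4:**
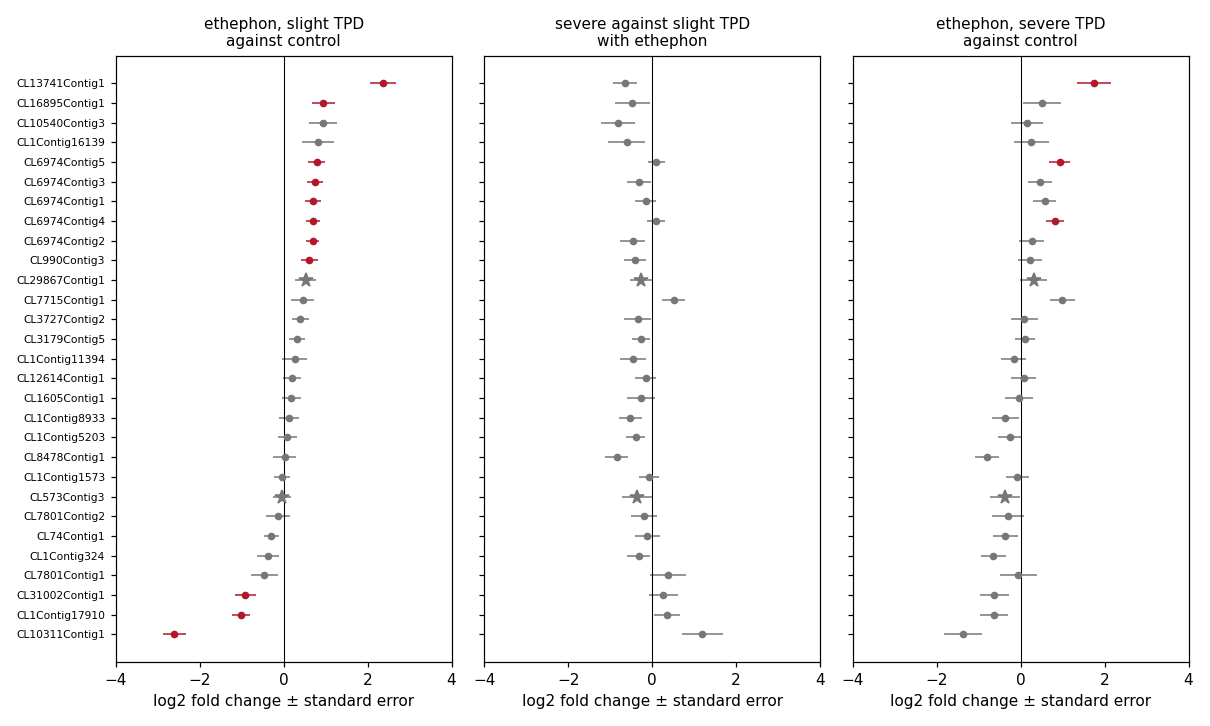
Log2 fold change with its standard error for the 29 contigs under 0.5 CPM in PB217 (rows, ordered by the ethephon comparison) in the 3 comparisons within PB260, 3 trees against 3. Red marks an adjusted p under 0.05 and stars mark the 2 selected contigs, which are grey in all 3 panels, whereas 8 contigs are red to the right and 3 to the left in the ethephon panel.

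The files hold no function for either selected contig. A best match was held for 2148 contigs, among them 460 of the 19651, and for neither CL573Contig3 nor CL29867Contig1. Neither was therefore on any list made from these matches (resistance proteins, mobile elements, protein kinases, transcription factors, cytochrome P450, ubiquitin and proteolysis, membrane transporters). They were also not on the lists of best matches to powdery mildew, bacteria or viruses. The 62 contigs matched to powdery mildew summed to 5.91 to 18.6 CPM in PB260 and 2.05 to 7.77 CPM in PB217, and the 6 matched to viruses to 3.25 to 8.20 CPM in PB260 and 0 to 2.01 CPM in PB217. The 6 matched to bacteria reached higher sums in PB217, with 5.54 to 32.9 CPM in PB260 and 10.8 to 64.1 CPM in PB217. On each of these lists only 1 contig reached 2 CPM in all PB260 libraries, so the sums may rest on few contigs. The sums were not tested between the clones. The organism from which the 2 contigs came was not tested. Markers of green bark cells (2 contigs) stayed under 0.7 CPM in sum in every library, and the 1 laticifer contig held had 0 to 2.09 CPM, so the labelled tissue could not be checked in depth.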

How the data were processed

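Latex poly(A) RNA was sequenced in 21 stranded paired-end libraries. Per the labels and the study's methods, the authors trimmed reads, removed ribosomal reads, mapped them with Bowtie2 (the labels also name TopHat2) to the PB260 reference transcriptome, removed reads that hit several contigs equally well, and deposited raw counts of pairs and of single reads per contig. Contig lengths were taken from the same files. CPM used the plain library sum of pairs. Comparisons within PB260, and between clones for the other contigs of CL573, used only their 6 libraries, contigs with at least 1 CPM in at least 3 of them, TMM and edgeR 4.0.16 (R 4.3.3) quasi-likelihood tests with Benjamini-Hochberg adjustment at 0.05. The standard errors given with edgeR log2 fold changes are the size of the change divided by the square root of F. Here F is the statistic of the quasi-likelihood test. DESeq2 1.42.0 was an alternative. On simulated counts of the ethephon comparison (30522 contigs), the test recovered 17% of log2 changes of 1 and 93% of changes of 2, with 18 false calls. Recovery was 9% and 76% for severe against slight TPD (30061 contigs), 11% and 76% for severe TPD against controls (29900 contigs), and for PB217 against PB260 23% and 92% in controls (29460 contigs) and 5% and 62% in dry trees (30510 contigs). Each simulation changed a small random set of all tested contigs, not contigs at the level of the selected ones. Except for severe against slight TPD, that set was smaller than the number called in the data. Recovery of the selected contigs in the data can therefore differ from these shares. With 3 against 3, an exact permutation test cannot give a p under 0.1.

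The rule, the lists and the settings were chosen with earlier results of these data known. Named contigs are the selected ones, the contigs nearest to each limit, the other contigs of CL573 and, under the wider PB217 limit, the strongest and the called ones with the largest changes. CL18345Contig1 was named after its values were seen. For PB217, labels do not say that a library is 1 separate tree, so the spread there may be partly technical. No contig sequence was held, so none is shown. Intervals for pooled levels are exact Poisson intervals, and those of ratios come from an exact binomial interval.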

Additional observations from a re-analysis of the deposited data

How the results depend on the processing

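The number of contigs that met the rule was 2 as given, 11 with a PB260 limit of 1 CPM, 0 with a PB260 limit of 5 CPM, 29 with a PB217 limit of 0.5 CPM and 0 when no pair was allowed in PB217. With TMM effective library sizes it was 1, because CL29867Contig1 then fell to 1.90 CPM in its lowest PB260 library. Leaving out each library in turn gave 2 to 3. In the 3 comparisons within PB260, 0 of the 2 contigs were called under each alternative run: edgeR's exact test and the Wald test of DESeq2, size factors in place of TMM, no filter on counts, a block for the replicate number, 1 fit of the 9 PB260 libraries, and each library left out. For CL573Contig3 the ethephon log2 fold change ranged from -0.17 to 0.049 over these. The adjusted p of the ethephon comparison was 0.652 or higher for CL573Contig3 and ranged from 0.116 to 0.338 for CL29867Contig1.

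Plain library sums in place of TMM were added after the data were seen. They called 0 of the 2 contigs within PB260 and gave CL573Contig3 an ethephon log2 fold change of 0.15. In the clone controls they gave CL573Contig4 -0.35 and called CL573Contig5 lower (1 of 3). Among the 19651 with ethephon, 4644 were higher and 2193 lower, against 2941 and 3056 with TMM.

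Correlations of deviations from group means were -0.30 to 0.37 over the 9 same-numbered pairs of PB260 libraries. Over the 18 differently numbered pairs they were -0.39 to 0.57, so no pairing by replicate number was seen. For the 29 contigs of the wider limit, settings were added after the data were seen. With ethephon the counts were 8 higher and 3 lower as reported, 5 to 7 and 2 to 3 without 1 library, 3 and 2 with all PB260 libraries in one fit, and 6 and 3 with the replicate block. For severe TPD against controls they were 3 and 0 as reported, 0 to 3 and 0 to 1 without 1 library, and 1 lower with no count filter, DESeq2, the exact test, the block (2 higher) or 1 fit. Among the other contigs of CL573, leaving out 1 control library gave 0 to 1 called higher and 0 to 1 called lower, and the control log2 fold change of CL573Contig4 ranged from -0.094 to 0.13. Among the 19651, severe against slight TPD called 17 higher and 0 lower, but 345 and 31 with no count filter, 392 and 40 with DESeq2, 318 and 34 with the exact test, 44 and 4 with the block, 41 and 4 in one fit, 1 and 0 with plain library sums, and 0 to 54 and 0 to 1 without 1 library. For severe TPD against controls, 974 were lower as reported, 1545 with DESeq2, 1599 in one fit and 332 to 1031 without 1 library, and 1429 were higher, with 332 to 1176 without 1 library. The lowest counts were those without control tree 2 (332 and 332), control tree 3 (385 higher and 355 lower) and severe TPD tree 3 (603 and 392). The causes were not tested. Depth limits the PB217 side, since 0.1 CPM stood for as few as 1.67 pairs in a library.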
